A study of Homo sapiens with 12 samples.

Results

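Amino acids enter and leave cells through carriers of several solute carrier (SLC) families, and the RNA of these families was followed in HK2 cells, an established line from human kidney proximal tubule. The members were the protein-coding genes of the count table whose GENCODE symbols begin with SLC1A, SLC3A, SLC6A, SLC7A, SLC36A, SLC38A or SLC43A and a number. The rule found 60 genes among 58288 gene IDs: 7 of SLC1, 2 of SLC3, 19 of SLC6, 14 of SLC7, 4 of SLC36, 11 of SLC38 and 3 of SLC43. One of the 60, SLC7A6OS, is not a transporter but the gene opposite SLC7A6, and its name alone brought it in.

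The cells carried a stable short hairpin RNA (shRNA), either nontargeting (shControl) or against FLCN, and had been grown for fewer than 30 passages (short-term) or more than 120 passages (long-term) by the labels. This gave 4 groups of 3 libraries each. The nontarget groups are called short-term and long-term nontarget, and those with the FLCN shRNA short-term and long-term knockdown. The study's methods give a lower limit of passages for the long-term cells, counted from clonal selection. The clone behind each library is not given in the sources used here, so effects of the shRNA, of the clone and of its time in culture cannot be told apart. The labels call the 3 libraries of a group biological replicates.

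FLCN itself checked the labels. It was at 12.7, 16.7 and 16.5 CPM (counts scaled to library size) in the short-term nontarget libraries and at 5.95, 6.58 and 5.66 CPM after short-term knockdown. In long-term cells it was at 9.92, 11.9 and 12.2 CPM without and at 6.70, 6.31 and 7.97 CPM with knockdown. The groups did not overlap at either time. Libraries held 5825779 to 8991051 counts. Of 13 proximal tubule markers, 3 reached a mean of 1 CPM in each group, and LRP2, HNF4A, SLC22A6 and SLC22A8, which define the segment, had no counts in any, so the labelled cell type shows little of its defining transport genes. Of 3 leukocyte genes, CD3E and PTPRC had no counts in any group, and the third, CD14, had means of 0.4998, 1.03, 0.1825 and 0.347 CPM in short-term nontarget, short-term knockdown, long-term nontarget and long-term knockdown cells. Among the other marker lists, CALB1 of the distal tubule was lower in both knockdown comparisons (−3.18 and −5.99 log2) and the proximal tubule genes GGT1 and MME were higher in both. After long-term knockdown the mesenchymal marker PDGFRB was lower past 2.5-fold and the epithelial marker EPCAM was lower, and in the interaction PDGFRB, EPCAM and the epithelial KRT18 were lower and MME higher. In long culture without knockdown CALB1 (1.96 log2) and KRT18 were higher and MME lower, and with knockdown EPCAM and PDGFRB were lower. The part of these markers in the results was not tested.

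As background, these families divide the work of moving amino acids. Heteromeric exchangers pair a heavy chain (SLC3A1 or SLC3A2), which carries the complex to the membrane, with a light chain of SLC7, which transports. SLC1 holds the glutamate transporters and the neutral exchangers ASCT1 and ASCT2, SLC6 the sodium- and chloride-coupled carriers of neurotransmitters, osmolytes and neutral amino acids, SLC38 the glutamine carriers, SLC36 proton-coupled carriers and SLC43 facilitated carriers. In the proximal tubule such carriers take filtered amino acids from the lumen and pass them to the blood. FLCN, the gene of Birt-Hogg-Dubé syndrome, acts at the lysosome, where Rag GTPases relay the amino acid supply to mTORC1 and to the factors TFEB and TFE3. SLC38A9 reports lysosomal arginine to that machinery. When amino acids are short, the factor ATF4 induces many of these carriers.

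Promoter windows from 250 bases before to 50 bases after RefSeq start sites (GRCh38.p14) were read for 45 of the 60 members, in 67 windows. They were searched on both strands for TGATGNAA, an ATF4/CEBP response element, CACGTG, the E-box that TFEB and TFE3 share with other factors, and TGACNNNGC, an antioxidant response element; no matches overlapped. The first stood in 6 of 67 member windows (8.96%) and in 3.62% of all 35116 windows, the E-box in 10 (14.93%) and in 7.26%, and the third in 7 (10.45%) and in 13.35%. A match shows that the letters are there, not that a factor binds. The 7 stretches below are a selection from members that changed and hold a match, written 5′ to 3′ on the gene's own strand with the match in capitals. Not printed are matches of SLC7A6 (antioxidant) and SLC7A7 (E-box and antioxidant), which also changed, and an antioxidant match in another window of SLC1A3. Past the stretches shown, the same windows hold an ATF4/CEBP match for SLC3A2 and an antioxidant match for SLC7A5. The E-box stretches are those of SLC38A5 (chrX:48470265-48470510, minus strand) and SLC7A5 (chr16:87869527-87869757, minus strand), both upstream of the gene, and of SLC7A8 (chr14:23154453-23154583, minus strand) and SLC36A1 (chr5:151447463-151447602, plus strand), both within the gene's span at an inner start site. The antioxidant element of SLC3A2 (chr11:62881549-62881670, plus strand) also lies at an inner start site. The ATF4/CEBP element stands upstream of SLC1A3 (chr5:36596338-36596468, plus strand) and, on the opposite strand, at an inner start site of SLC1A4 (chr2:64989279-64989399, plus strand). In GENCODE 29, 3 bases of the SLC3A2 stretch and 7 of the SLC36A1 stretch are exonic and none of the others.
SLC38A5: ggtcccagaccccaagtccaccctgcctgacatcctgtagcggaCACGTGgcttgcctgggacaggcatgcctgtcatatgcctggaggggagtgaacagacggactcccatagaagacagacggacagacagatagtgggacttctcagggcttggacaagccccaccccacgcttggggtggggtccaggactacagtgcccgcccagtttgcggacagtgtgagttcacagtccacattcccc
SLC7A5: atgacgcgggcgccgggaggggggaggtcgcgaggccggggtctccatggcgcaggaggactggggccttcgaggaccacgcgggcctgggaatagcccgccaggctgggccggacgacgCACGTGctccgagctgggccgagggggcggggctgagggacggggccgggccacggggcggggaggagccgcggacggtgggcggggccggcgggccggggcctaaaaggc
SLC7A8: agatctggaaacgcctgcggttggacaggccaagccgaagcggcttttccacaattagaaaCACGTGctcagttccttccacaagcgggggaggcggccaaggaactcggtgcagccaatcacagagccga
SLC36A1: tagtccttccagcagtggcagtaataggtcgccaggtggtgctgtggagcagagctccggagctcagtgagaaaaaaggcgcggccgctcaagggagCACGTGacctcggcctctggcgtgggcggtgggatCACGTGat
SLC3A2: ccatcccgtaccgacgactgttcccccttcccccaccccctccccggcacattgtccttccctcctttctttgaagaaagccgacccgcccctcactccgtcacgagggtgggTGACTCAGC
SLC1A3: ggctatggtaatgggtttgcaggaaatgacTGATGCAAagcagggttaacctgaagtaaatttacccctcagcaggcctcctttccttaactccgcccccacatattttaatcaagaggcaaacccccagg
SLC1A4: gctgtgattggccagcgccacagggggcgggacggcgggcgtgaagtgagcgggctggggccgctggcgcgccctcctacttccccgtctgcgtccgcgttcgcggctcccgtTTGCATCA

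HK2 cells had counts for 43 of the 60 members. The other 17 had none in the 12 libraries. Among them were SLC6A19, which carries most neutral amino acids across the luminal membrane of the kidney, its relative SLC6A18, SLC7A13, a light chain that pairs with SLC3A1, and the proton-coupled SLC36A2. A further 7 had at most 59 counts over all libraries and were not tested: SLC1A7, SLC6A4, SLC6A16, SLC7A9, SLC7A14, SLC38A11 and SLC43A1. SLC7A9, the luminal light chain that pairs with SLC3A1, had 1 count in all. The remaining 36 were tested. Of these, 25 reached the limit of the filter (1.46 CPM) in all 12 libraries, and 11 in only some. SLC6A12, SLC6A13 and SLC7A8 did so in all 3 libraries of the short-term knockdown group alone, and SLC1A1 and SLC6A20 in those of the long-term nontarget group alone. SLC6A13, SLC7A8 and SLC6A20 could enter the test only through that group, since the filter asks for 3 libraries at the limit and fewer than 3 of the other groups reached it, while SLC6A12 and SLC1A1 also had 3 and 4 libraries of other groups there. For this reason counts over the tested members describe and do not support a direction.

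Levels were compared between genes per length, as CPM per kilobase (kb) of exons. The highest over all libraries were SLC38A2 at 86.3, SLC7A5 at 80.4, SLC1A5 at 60.6, SLC38A1 at 37.1 (SNAT2, LAT1, ASCT2 and SNAT1, carriers of glutamine and large neutral amino acids) and the heavy chain SLC3A2 at 35.5 CPM per kb. Their order differed by group. SLC38A2 led in short-term nontarget cells (98.8 ± 1.9 CPM per kb, SD, n = 3) and in long-term knockdown cells (79.3 ± 6.7), while SLC7A5 had the highest mean in short-term knockdown (105 ± 48) and long-term nontarget cells (116 ± 32). In both of these groups the libraries of SLC7A5 and SLC38A2 overlapped, so their order there is not beyond the spread.

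**Figure D1:**
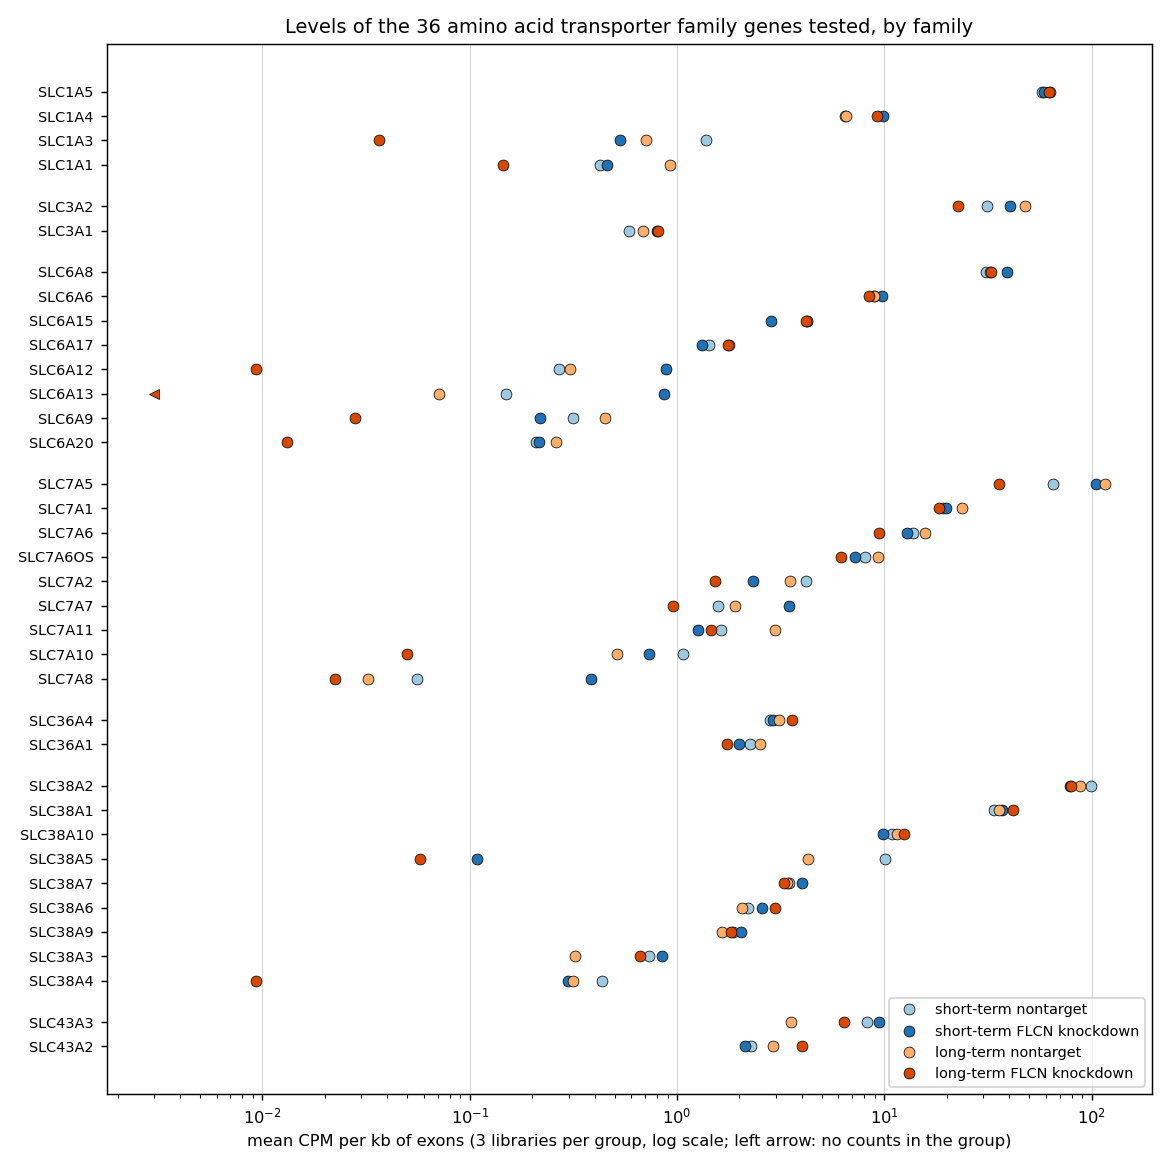
Each row is 1 of the 36 tested members, grouped by family, and each point the mean level of 1 group of 3 libraries in CPM per kb of exons on a log scale, with an arrow where a group had no counts. SLC38A2, SLC7A5 and SLC1A5 stand near the right edge in every group, and the long-term knockdown points of SLC6A12, SLC6A13, SLC6A20, SLC38A4 and SLC1A3 lie far to the left of the other groups.

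The first question was what FLCN knockdown did in short-term cells. A gene was called at an adjusted p below 0.05 (edgeR's quasi-likelihood test, Benjamini-Hochberg over 13959 genes). Of the 36 members tested, 9 were called, 5 higher and 4 lower, against 10.3% of all genes (5.62% higher, 4.71% lower). The higher ones were SLC7A8, SLC6A13, SLC6A12, SLC7A7 and SLC1A4, and the lower ones SLC38A5, SLC1A3, SLC7A2 and SLC6A15. The median log2 fold change of the tested members was 0.06, beside 0.00 for all genes. Past a 2.5-fold change as well were 5 members, 3 higher and 2 lower, against 1.79% of all genes (1.12% higher and 0.673% lower). In long-term cells, where the same question was asked after prolonged knockdown, 18 of 36 were called against 29.5% of all genes. Of these, 2 were higher (13.7% of all genes) and 16 lower (15.8%), and the median was −0.36 beside 0.00 for all genes. Past 2.5-fold were 9 members, all lower, against 6.61% of all genes (4.61% lower). With the replicate number as a block, which the data pair for these groups, 5 members were called higher and 17 lower. SLC38A5, SLC1A3 and SLC7A2 were called lower and SLC1A4 higher at both times.

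**Figure D2:**
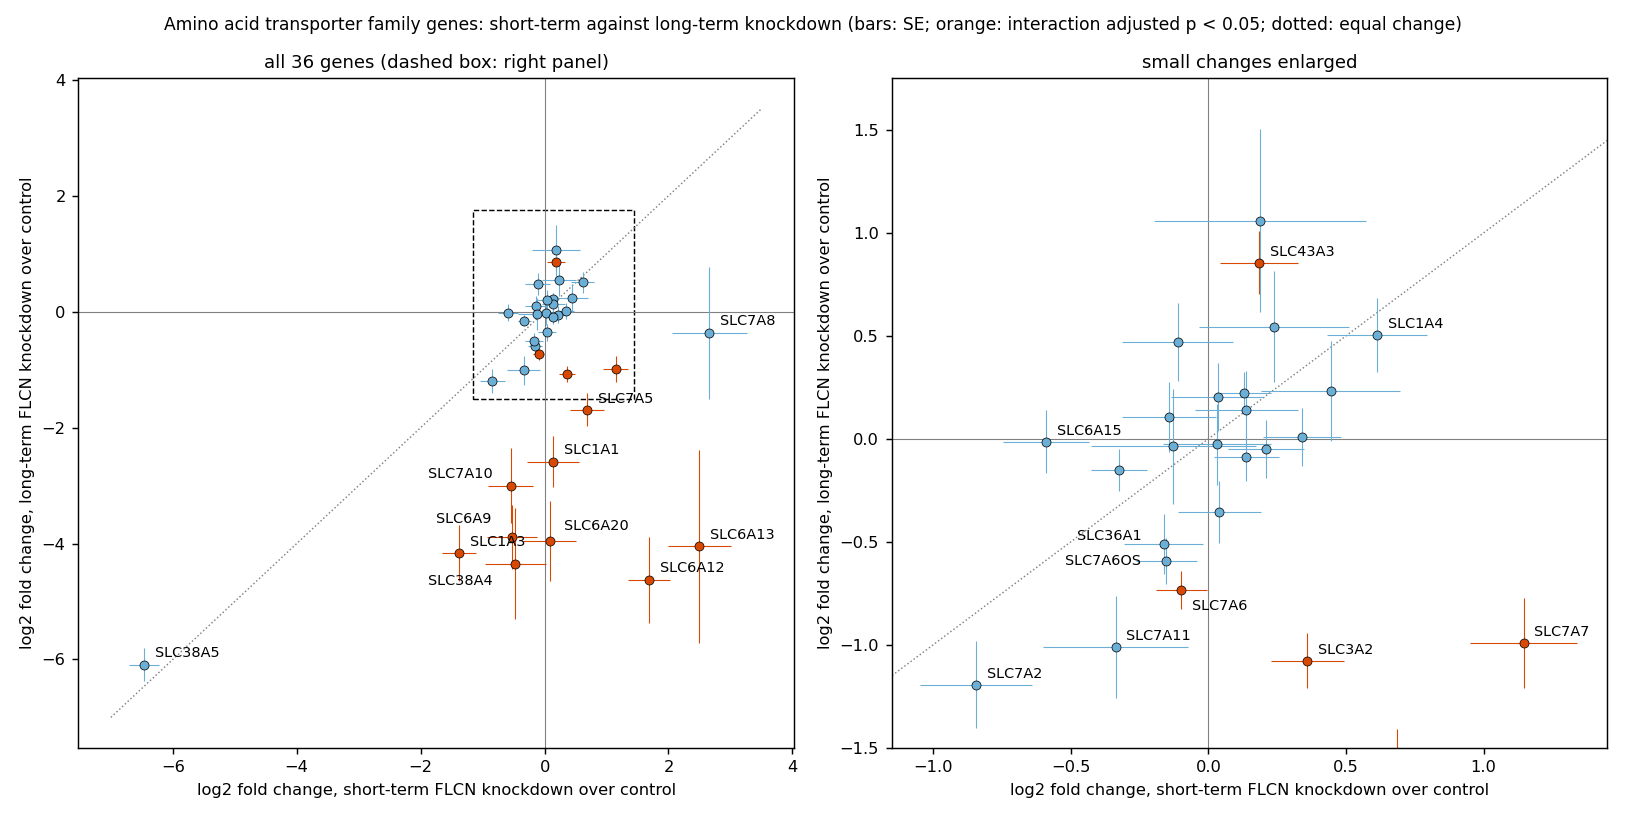
Each point is 1 of the 36 tested members, with the log2 fold change of short-term knockdown on the x axis, that of long-term knockdown on the y axis and SE as bars, and orange where the difference between the changes (the interaction) passed the adjusted p; the right panel enlarges the dashed box. SLC38A5 lies at −6.46 and −6.09, near the line of equal change. SLC6A12, SLC6A13, SLC7A7 and SLC7A8 lie to the right of 0 on the x axis and below 0 on the y axis. The long-term changes of SLC6A13 and SLC7A8 were not called.

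SLC38A5 (SNAT5; ENSG00000017483.14, chrX:48458537-48470256, GRCh38) exports or takes up glutamine and other neutral amino acids in exchange for protons. It was at 47.2, 38.9 and 35.0 CPM in the short-term nontarget libraries and at 0.506, 0.439 and 0.354 CPM after short-term knockdown. In the long-term nontarget libraries it was at 17.15, 15.8 and 18.4 CPM, and after long-term knockdown at 0.231, 0.2935 and 0.170 CPM. All 6 knockdown libraries lay far below all 6 nontarget libraries, and the long-term nontarget libraries lay below the short-term ones. Short-term knockdown changed SLC38A5 by −6.46 log2 (SE 0.24, adjusted p = 1.5e-11), 88.1-fold, and long-term knockdown by −6.09 log2 (SE 0.29, adjusted p = 1.18e-10), 68.1-fold. The knockdown groups held 9 and 5 counts in all against 824 and 372 in their controls. The 2 changes did not differ by the interaction (0.37 log2, SE 0.76, adjusted p = 0.85). Bulk RNA does not tell fewer expressing cells from less RNA per cell. Over the 40 nearest tested genes the median change was 0.02 log2 short-term and 0.08 log2 long-term. Its promoter stretch above holds an E-box. The other SLC38 carrier of this type, SLC38A3, was at 0.929 to 4.37 CPM in the 12 libraries and was called in no comparison with the filter on low counts (long-term 1.06 log2, SE 0.45, adjusted p = 0.0853, and 0.0418 without the filter).

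The heavy chain SLC3A2 and 5 of its 6 light chains fell in long-term knockdown cells, where 15.8% of all genes were lower, with a median of −1.0 log2 over the light chains. Short-term, the light chains SLC7A7 and SLC7A8 were called higher and none lower, beside 5.62% and 4.71% of all genes. SLC7A8 had passed the filter only through the short-term knockdown group, where it was high. SLC3A2 (4F2hc or CD98, chr11:62856102-62888875) was at 155, 156 and 175 CPM in short-term nontarget and at 191, 189 and 244 CPM in short-term knockdown libraries. It was at 209, 249.6 and 283.5 CPM in long-term nontarget and at 106, 109 and 137 CPM in long-term knockdown libraries. The long-term knockdown libraries were the lowest of the 12 and the long-term nontarget ones lay above all the short-term nontarget ones. SLC3A2 fell by 1.08 log2 after long-term knockdown (SE 0.13, adjusted p = 9.33e-06). Its short-term difference was 0.36 log2 (SE 0.13, adjusted p = 0.103, and 0.0377 without the filter), and the interaction was −1.44 log2 (SE 0.19, adjusted p = 4.14e-05).

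SLC7A5 (LAT1, chr16:87830023-87869488), the light chain that imports leucine and other large neutral amino acids, was at 310, 271.5 and 346 CPM in short-term nontarget libraries. It was at 380, 353 and 759 CPM after short-term knockdown, where replicate 3 stood far above the other libraries. Long-term nontarget libraries had 449.9, 477 and 722 CPM and long-term knockdown libraries 148, 128 and 234 CPM. Every long-term knockdown library lay below every other library. SLC7A5 fell 3.24-fold after long-term knockdown (−1.70 log2, SE 0.29, adjusted p = 0.000348), while short-term knockdown gave 0.68 log2 (SE 0.28, adjusted p = 0.149). The interaction was −2.38 log2 (SE 0.40, adjusted p = 0.00077). Reads of SLC7A5 may be shared with its pseudogenes SLC7A5P1 and SLC7A5P2, and its exons overlap AC126696.2.

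SLC7A11 (xCT), which imports cystine for glutathione in exchange for glutamate, was at 13.9, 13.8 and 19.3 CPM in short-term nontarget and at 17.8, 10.4 and 8.32 CPM in short-term knockdown libraries. In long-term cells it was at 38.7, 24.3 and 22.4 CPM without and at 14.4, 13.2 and 14.8 CPM with knockdown. Only the long-term nontarget libraries stood apart, all above the rest. After long-term knockdown SLC7A11 fell by 1.01 log2 (SE 0.25, adjusted p = 0.00532), and the interaction was not called (−0.67 log2, SE 0.36, adjusted p = 0.254). Its exons overlap SLC7A11-AS1, and the strand setting of the counts is not known.

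SLC7A6 (y+LAT2), which exchanges cationic for neutral amino acids, had means of 104 ± 3.7, 97.6 ± 7.8, 119 ± 1.7 and 71.5 ± 1.5 CPM (SD, n = 3) in short-term nontarget, short-term knockdown, long-term nontarget and long-term knockdown cells. It fell after long-term knockdown by 0.74 log2 (SE 0.09, adjusted p = 1.01e-05), with an interaction of −0.64 log2 (SE 0.13, adjusted p = 0.00265). SLC7A6OS, whose exons overlap those of SLC7A6, fell by 0.59 log2 (SE 0.11, adjusted p = 0.000537) in the same comparison, and reads of the pair cannot be told apart where strand was not used.

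Of the other light chains of SLC3A2, SLC7A7 (y+LAT1, chr14:22773222-22829820), the basolateral exit route for lysine and arginine in kidney and gut, changed in opposite directions. It was at 7.38, 8.81 and 8.17 CPM in short-term nontarget and at 18.5, 20.3 and 14.9 CPM in short-term knockdown libraries. It was at 8.845, 7.59 and 12.9 CPM in long-term nontarget and at 5.32, 4.55 and 4.92 CPM in long-term knockdown libraries. At neither time did the groups overlap. SLC7A7 rose 2.21-fold short-term (1.15 log2, SE 0.20, adjusted p = 0.000944) and fell 1.99-fold long-term (−0.99 log2, SE 0.22, adjusted p = 0.00214). The interaction was −2.14 log2 (SE 0.29, adjusted p = 6.46e-05).

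SLC7A8 (LAT2, chr14:23125295-23183674), the basolateral light chain for neutral amino acids, was at 0.547, 0.456 and 0 CPM in short-term nontarget libraries and at 2.02, 2.05 and 2.83 CPM after short-term knockdown. It was at 0.268, 0.310 and 0 CPM in long-term nontarget libraries and at 0.231, 0 and 0.170 CPM after long-term knockdown. Only the short-term knockdown libraries were above 1 CPM. SLC7A8 rose 6.32-fold short-term (2.66 log2, SE 0.60, adjusted p = 0.00789). It entered the test only through the group where it was high, and without the filter the adjusted p was 0.000955. The long-term groups held 4 and 3 counts, a ratio of 1.32 (95% interval 0.223 to 8.98), so a difference was not detectable at this depth. The interaction did not pass the test (−3.02 log2, SE 1.41, adjusted p = 0.18).

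SLC7A10 (Asc-1), a carrier of small neutral amino acids, was at 2.87, 3.80 and 3.30 CPM in short-term nontarget and at 1.77, 2.78 and 2.30 CPM in short-term knockdown libraries. It was at 1.61, 1.24 and 1.94 CPM in long-term nontarget and at 0.462, 0 and 0 CPM in long-term knockdown libraries. The last group lay below all other libraries. SLC7A10 fell 8.01-fold after long-term knockdown (−3.0 log2, SE 0.64, adjusted p = 0.00175). All 4 counts of that group were in replicate 1. Without this library the group was at 0 and the fitted change was −6.47 log2, which is no bound, while it was −2.50 log2 without long-term knockdown replicate 2. The exons of SLC7A10 overlap LRP3. The interaction, −2.46 log2 (SE 0.77, adjusted p = 0.0418), was lost without any 1 library other than short-term knockdown replicate 1, long-term nontarget replicate 2 and long-term knockdown replicate 1 (adjusted p up to 0.122).

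Summed per length, the 6 light chains of SLC3A2 came to 83.25 ± 8.4, 123.5 ± 48, 137 ± 32 and 47.8 ± 12 CPM per kb (SD, n = 3) in short-term nontarget, short-term knockdown, long-term nontarget and long-term knockdown cells. SLC7A5 made up 78.2%, 83.5%, 84.1% and 74.1% of these sums. The ratio of the light chains to SLC3A2 was 2.66 ± 0.15, 3.00 ± 0.68, 2.85 ± 0.33 and 2.09 ± 0.24. The long-term knockdown libraries ran from 1.84 to 2.325 and the other libraries from 2.49 to 3.79, so the ratio was lowest where both partners were low. With the length of the longest transcript in place of all exons the ratios were 1.24, 1.40, 1.32 and 0.978, in the same order. No test was run on these sums. SLC3A1 (rBAT), the other heavy chain, had means of 3.82 to 5.32 CPM and was called in no comparison, while its light chains SLC7A9 and SLC7A13 had 1 count and none.

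**Figure D3:**
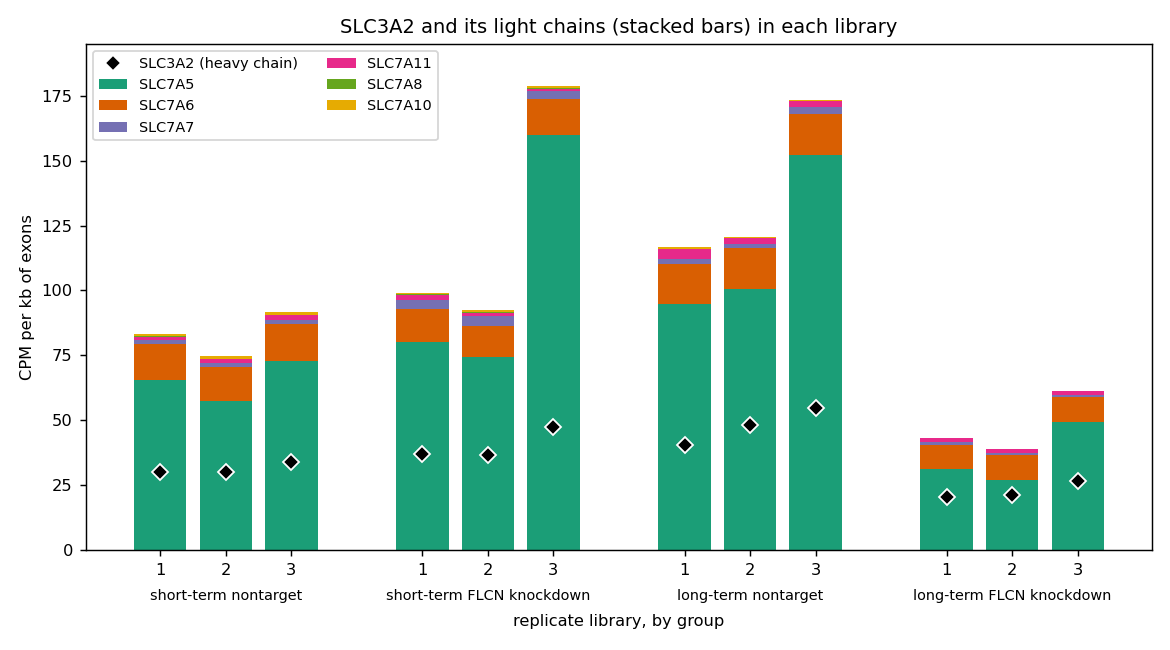
Stacked bars give the level of 6 light chains of SLC3A2 and diamonds that of SLC3A2 itself, in CPM per kb of exons, in each of 12 libraries. SLC7A5 forms most of each bar, replicate 3 has the tallest bar in each group, and the 3 long-term knockdown libraries have the shortest bars and the lowest diamonds.

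Both tested glutamate transporters fell in long-term knockdown cells, where 15.8% of all genes were lower. SLC1A3 (EAAT1, chr5:36606355-36688334) was at 9.295, 7.44 and 9.11 CPM in short-term nontarget and at 2.91, 3.51 and 3.54 CPM in short-term knockdown libraries. It was at 5.63, 2.79 and 4.92 CPM in long-term nontarget and at 0.347, 0 and 0.339 CPM in long-term knockdown libraries. The groups did not overlap at either time. SLC1A3 fell 2.61-fold short-term (−1.38 log2, SE 0.28, adjusted p = 0.00353) and 17.9-fold long-term (−4.16 log2, SE 0.48, adjusted p = 4.21e-06), and the changes differed (interaction −2.78 log2, SE 0.61, adjusted p = 0.00496). Its 40 nearest tested genes had median log2 fold changes of 0.35 and 0.25. SLC1A1 (EAAT3, chr9:4490444-4587469), which takes glutamate and aspartate from the tubule lumen, was at 0.957, 2.28 and 1.885 CPM in short-term nontarget and at 1.77, 2.34 and 1.42 CPM in short-term knockdown libraries, which overlapped. It was at 2.55, 3.25 and 5.305 CPM in long-term nontarget and at 0.809, 0.587 and 0.339 CPM in long-term knockdown libraries, which did not. SLC1A1 fell 6.01-fold long-term (−2.59 log2, SE 0.44, adjusted p = 0.000247), against 0.14 log2 short-term (SE 0.42, adjusted p = 0.895) and an interaction of −2.73 log2 (SE 0.62, adjusted p = 0.00619).

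Long-term, the neutral exchangers of SLC1 changed by less than the glutamate transporters, a contrast that was not tested. SLC1A4 (ASCT1), a carrier of serine, alanine and cysteine, had means of 44.7 ± 5.9 and 68.6 ± 21.8 CPM in short-term nontarget and knockdown cells and of 45.2 ± 6.4 and 64.3 ± 6.8 CPM in long-term ones (SD, n = 3). The short-term groups overlapped and the long-term ones did not. It rose by 0.61 log2 short-term (SE 0.18, adjusted p = 0.0407) and by 0.50 log2 long-term (SE 0.18, adjusted p = 0.0457). The call was lost without nontarget replicate 1 or 2 or knockdown replicate 1 or 3 short-term (adjusted p up to 0.191), and without any long-term library but nontarget replicate 3 (up to 0.161). It was also lost short-term when only those groups were fitted (adjusted p = 0.0618) and long-term with a mean of at least 10 CPM (0.055). The 40 nearest tested genes on chromosome 2 had median log2 fold changes of 0.30 and 0.52, in the same direction as SLC1A4 in both comparisons; their part in the result was not tested. SLC1A5 (ASCT2), the main glutamine exchanger of many cultured cells, had means of 193 to 211 CPM and differed by 0.03 log2 short-term (SE 0.20, adjusted p = 0.952) and −0.03 log2 long-term (SE 0.19, adjusted p = 0.939).

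In SLC6, a pair of neighbouring genes on chromosome 12 was highest in short-term knockdown cells and at or near 0 in long-term knockdown cells. SLC6A12 (BGT1, chr12:190077-214570), the betaine and GABA carrier that loads kidney cells with osmolyte, was at 1.78, 1.06 and 1.41 CPM in short-term nontarget and at 3.80, 5.26 and 4.955 CPM in short-term knockdown libraries. It was at 1.47, 2.17 and 1.16 CPM in long-term nontarget and at 0, 0.147 and 0 CPM in long-term knockdown libraries. The groups did not overlap at either time. SLC6A12 rose 3.22-fold short-term (1.69 log2, SE 0.34, adjusted p = 0.00327). Long-term it fell (adjusted p = 0.000128): 34 counts stood against 1, a ratio of 33.6 whose 95% counting interval runs from 5.63 to 1360. The interaction was −6.31 log2 (SE 0.80, adjusted p = 2.79e-05), a fitted value that depends on the prior count.

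SLC6A13 (GAT2, chr12:220621-262873), a GABA and taurine carrier, was at 0.683, 0.911 and 0.314 CPM in short-term nontarget and at 4.30, 3.655 and 3.01 CPM in short-term knockdown libraries. It was at 0, 0.774 and 0.129 CPM in long-term nontarget libraries and at 0 in all 3 long-term knockdown libraries. The short-term groups did not overlap and the long-term ones did, at 0. SLC6A13 rose 5.63-fold short-term (2.49 log2, SE 0.51, adjusted p = 0.00467), having passed the filter through that high group alone (adjusted p = 2.03e-05 without the filter). Long-term, 6 counts stood against 0 (adjusted p = 0.0807, and 0.0487 by DESeq2), at least 1.97-fold lower against a floor of 3 counts over the group. Between the short- and long-term knockdown groups SLC6A13 was at least 26.5-fold lower (76 counts against 0, adjusted p = 3.09e-05). Its interaction (adjusted p = 0.0177) was lost without long-term nontarget replicate 2 (adjusted p = 0.215). The 40 tested genes nearest to this pair had median log2 fold changes of 0.01 and 0.03.

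Further SLC6 members were low in long-term knockdown cells alone. SLC6A9 (GlyT1), a glycine carrier, was at 1.64, 1.215 and 2.04 CPM in short-term nontarget and at 1.265, 0.877 and 1.24 CPM in short-term knockdown libraries. It was at 2.68, 1.39 and 2.85 CPM in long-term nontarget and at 0.116, 0.147 and 0.170 CPM in long-term knockdown libraries, the lowest of the 12. SLC6A20 (SIT1), which takes up proline and other imino acids from the tubule lumen, was at 1.23, 1.215 and 1.73 CPM in short-term nontarget and at 1.265, 2.34 and 0.708 CPM in short-term knockdown libraries. It was at 1.61, 2.01 and 1.55 CPM in long-term nontarget and at 0.116, 0.147 and 0 CPM in long-term knockdown libraries. For both genes the short-term groups overlapped and the long-term knockdown libraries lay below all others. SLC6A9 fell long-term (51 counts against 3, ratio 16.8, interval 5.43 to 84.0, adjusted p = 3.55e-05), as did SLC6A20 (37 against 2, ratio 18.3, interval 4.71 to 156, adjusted p = 0.00027). SLC6A20 passed the filter only through its high group, long-term nontarget, and had an adjusted p of 4.49e-06 without the filter. The short-term differences were −0.52 log2 for SLC6A9 (SE 0.40, adjusted p = 0.481) and 0.08 log2 for SLC6A20 (SE 0.43, adjusted p = 0.945), and both interactions were called, −3.37 log2 (adjusted p = 0.00417) and −4.04 log2 (adjusted p = 0.00318). The exons of SLC6A9 overlap CCDC24.

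SLC6A15 (B0AT2), a carrier of branched-chain amino acids and proline, fell in short-term knockdown cells, from 37.4 ± 4.0 to 24.9 ± 2.2 CPM (SD, n = 3), by 0.59 log2 (SE 0.16, adjusted p = 0.0226). Leaving out nontarget replicate 2 or knockdown replicate 1 or 2 ended the call (adjusted p up to 0.117). In long-term cells it was at 37.05 ± 7.8 and 36.6 ± 5.0 CPM, and the interaction did not pass (0.57 log2, SE 0.22, adjusted p = 0.0971). It passed with the replicate block (adjusted p = 0.0394), which does not pair the short-term nontarget libraries. The creatine carrier SLC6A8, the taurine carrier SLC6A6 and SLC6A17 were called in no comparison without the replicate block. With it, SLC6A8 was lower in long culture with knockdown (−0.26 log2, SE 0.09, adjusted p = 0.0387), and higher after short-term knockdown (0.32 log2, SE 0.09, adjusted p = 0.0212), where the numbers do not pair the libraries. SLC6A8 was the most abundant of SLC6 per length, at 30.8 to 39.0 CPM per kb by group.

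SLC7A2 (CAT-2), which imports arginine and lysine, was at 30.1, 27.5 and 41.3 CPM in short-term nontarget and at 19.4, 12.9 and 23.0 CPM in short-term knockdown libraries. It was at 32.4, 26.2 and 24.2 CPM in long-term nontarget and at 11.6, 14.4 and 10.2 CPM in long-term knockdown libraries. All 6 knockdown libraries lay below all 6 nontarget ones. SLC7A2 fell by 0.84 log2 short-term (SE 0.20, adjusted p = 0.012) and by 1.19 log2 long-term (SE 0.21, adjusted p = 0.00035), with no call for the interaction (−0.35 log2, SE 0.29, adjusted p = 0.502). The short-term call was lost without either of 2 libraries, nontarget replicate 3 or knockdown replicate 2 (adjusted p up to 0.081). Its broadly expressed relative SLC7A1 (CAT-1), at means of 142 to 181 CPM, differed by −0.36 log2 long-term (SE 0.15, adjusted p = 0.0875, and 0.00247 with the replicate block).

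**Figure D4:**
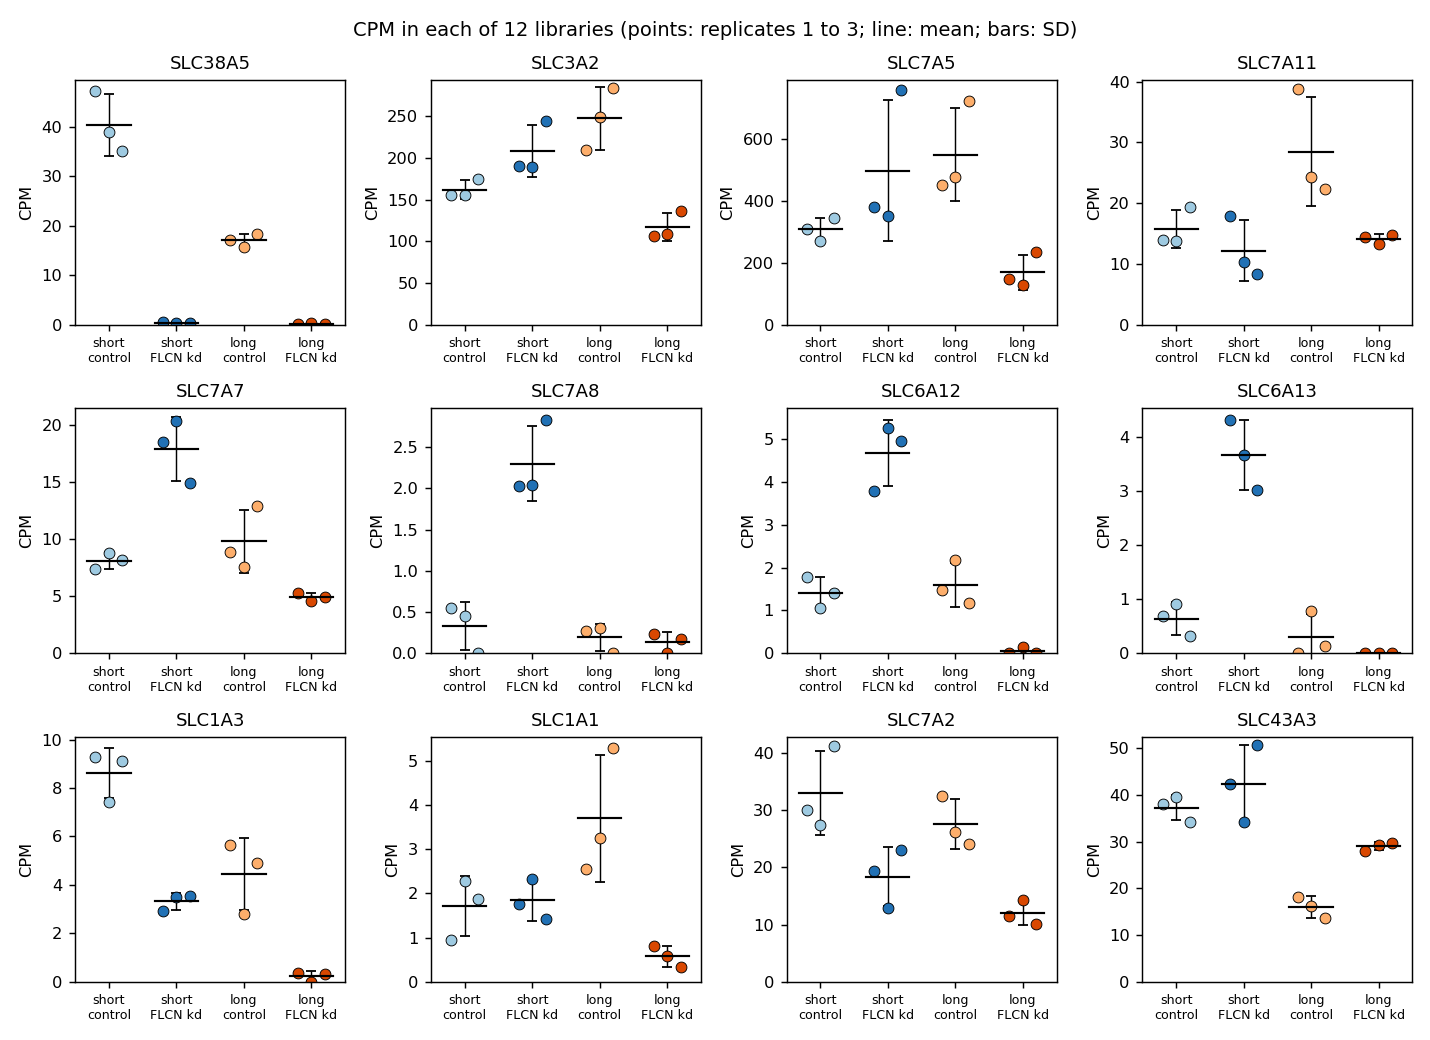
Each panel gives the CPM of 1 member in the 12 libraries (points, replicates 1 to 3 from left to right), with the group mean as a line and the SD as bars, on a linear axis from 0 (control means nontarget, kd knockdown). SLC38A5 is near 0 in both knockdown groups, SLC7A8, SLC6A12 and SLC6A13 are highest in the short-term knockdown group, and SLC3A2 and SLC7A5 are lowest in the long-term knockdown group.

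Among the other SLC38 members, SLC38A4 (SNAT4), a sodium-coupled carrier of neutral amino acids, was at 2.05, 2.58 and 0.7855 CPM in short-term nontarget and at 1.90, 1.46 and 0.354 CPM in short-term knockdown libraries. It was at 1.47, 1.39 and 1.035 CPM in long-term nontarget and at 0.116, 0 and 0 CPM in long-term knockdown libraries, which lay below all others, while the short-term groups overlapped. It fell long-term (28 counts against 1, ratio 27.6, interval 4.57 to 1130, adjusted p = 0.00224). Its interaction (−3.87 log2, SE 1.15, adjusted p = 0.033) was lost without short-term knockdown replicate 1 or 2, long-term nontarget replicate 1 or 2 or any long-term knockdown library (adjusted p up to 0.0943). The abundant system A carriers were not called. SLC38A2 had means of 652 ± 13, 520 ± 50, 583 ± 59 and 524 ± 44 CPM over the 4 groups in the order used above, and differed by −0.33 log2 short-term (SE 0.10, adjusted p = 0.0513) and −0.15 log2 long-term (SE 0.10, adjusted p = 0.289). The short-term groups did not overlap, and the gene was called lower there by DESeq2 (adjusted p = 0.0315), without the filter (0.046), with only those groups fitted (0.0432) and with the replicate block (0.00443), which does not pair these libraries. SLC38A1 differed by 0.13 log2 (SE 0.10, adjusted p = 0.488) and 0.22 log2 (SE 0.10, adjusted p = 0.101, and 0.0367 with the replicate block). SLC38A6, a less studied member, differed by 0.24 log2 short-term (SE 0.27, adjusted p = 0.669) and 0.54 log2 long-term (SE 0.27, adjusted p = 0.146, but 0.0253 with the replicate block and 0.0272 without the filter).

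The lysosomal members, SLC38A9, SLC36A1 (PAT1), the glutamine exporter SLC38A7 and SLC7A14, bear on the amino acid signal that FLCN relays. SLC38A9 had means of 16.3 ± 1.2, 18.0 ± 1.2, 14.6 ± 4.2 and 16.0 ± 3.0 CPM over the 4 groups and was called in no comparison (0.14 log2 at both times, SE 0.19, adjusted p = 0.729 short-term and 0.628 long-term). SLC38A7 was at 23.0 to 28.0 CPM by group and likewise not called, and SLC7A14 had 1 count. SLC36A1 was at 17.3, 17.5 and 17.6 CPM in long-term nontarget and at 14.0, 10.6 and 12 CPM in long-term knockdown libraries, which did not overlap. It fell by 0.51 log2 (SE 0.14, adjusted p = 0.0124), against −0.16 log2 short-term (SE 0.14, adjusted p = 0.566). Without long-term knockdown replicate 2 the call was lost (adjusted p = 0.0633). Its relative SLC36A4 was not called.

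SLC43A3, a member of SLC43 known as a purine nucleobase carrier, was at 38, 39.5 and 34.25 CPM in short-term nontarget and at 42.4, 34.2 and 50.6 CPM in short-term knockdown libraries. It was at 18.2, 16.3 and 13.6 CPM in long-term nontarget and at 28.1, 29.2 and 29.7 CPM in long-term knockdown libraries. It was lowest in long-term nontarget cells, and the long-term groups did not overlap. SLC43A3 rose by 0.86 log2 after long-term knockdown (SE 0.15, adjusted p = 0.00038). In the fit without the replicate block it was the only member with a higher interaction (0.67 log2, SE 0.21, adjusted p = 0.0411). SLC43A2 and SLC6A15 were also called higher with the block. The interaction of SLC43A3 was lost without replicate 1 or 2 of short-term nontarget, short-term knockdown or long-term knockdown cells or replicate 2 or 3 of long-term nontarget cells (adjusted p up to 0.116). SLC43A2 (LAT4) had means of 30.65 ± 5.2 and 42.6 ± 5.1 CPM in long-term nontarget and knockdown cells (0.47 log2, SE 0.19, adjusted p = 0.0712, and 0.00393 with the replicate block). Over its 40 nearest tested genes the median change was 0.59 log2 there; their part in the result was not tested.

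Whether the effect of knockdown differed with time was asked by the interaction. Of 36 members, 13 were called, 12 lower and 1 higher, against 13.4% of all genes (8.43% lower and 4.98% higher), with a median of −0.34 log2. Past 2.5-fold were 11, all lower, against 5.44% of all genes (4.12% lower). The 12 were SLC1A1, SLC1A3, SLC3A2, SLC6A9, SLC6A12, SLC6A13, SLC6A20, SLC7A5, SLC7A6, SLC7A7, SLC7A10 and SLC38A4. SLC7A7 and SLC6A12 were called in opposite directions at the 2 times.

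Long culture was compared without and with knockdown. Without knockdown, 5 of 36 members were called against 7.55% of all genes, 2 higher (3.17%) and 3 lower (4.38%). None changed past 2.5-fold, against 1.88% of all genes. SLC3A2 rose by 0.61 log2 (SE 0.13, adjusted p = 0.00752) and SLC7A11 by 0.86 log2 (SE 0.25, adjusted p = 0.042), while SLC38A5 fell by 1.24 log2 (SE 0.14, adjusted p = 2.48e-05), SLC43A3 by 1.22 log2 (SE 0.15, adjusted p = 6.04e-05) and SLC1A3 by 0.94 log2 (SE 0.26, adjusted p = 0.0363). The call of SLC7A11 was lost without replicate 1 or 2 of either group (adjusted p up to 0.182), and that of SLC1A3 without any library but long-term nontarget replicate 1 (up to 0.152). SLC7A5 differed by 0.83 log2 (SE 0.28, adjusted p = 0.0915), and was called higher when only these groups were fitted (SE 0.16, adjusted p = 0.00388).

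With knockdown, 16 of 36 were called against 26.6% of all genes, 2 higher (11.5%) and 14 lower (15.2%). Past 2.5-fold were 11, all lower, against 6.25% of all genes (1.27% higher and 4.99% lower). SLC43A2 rose by 0.93 log2 (SE 0.20, adjusted p = 0.00181) and SLC6A15 by 0.56 log2 (SE 0.16, adjusted p = 0.0133). The call of SLC6A15 was lost without short-term knockdown replicate 1 or long-term knockdown replicate 2 (adjusted p up to 0.0778). Among the lower were SLC7A8 (46 counts against 3, ratio 16.1, interval 5.16 to 80.7, adjusted p = 0.000539), SLC7A7 (−1.86 log2, SE 0.21, adjusted p = 3.43e-06), SLC7A5 (−1.55 log2, SE 0.28, adjusted p = 0.000874) and SLC3A2 (−0.83 log2, SE 0.13, adjusted p = 0.000175). SLC7A8 and SLC6A13, both among the lower, passed the filter only through the short-term knockdown group, where they were high. The counts of lower members include them and do not support a direction. Over the 40 nearest tested genes the median change was −0.53 log2 for SLC7A8 and −0.02 log2 for SLC7A5, and their part was not tested. With the replicate block 3 members were called higher and 16 lower, SLC38A10 added to the higher and SLC6A8 and SLC7A2 to the lower. The share of all genes called with the block was not counted. The short-term knockdown group enters both this comparison and the short-term one, and the long-term knockdown group this and the long-term one.

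Other genes of amino acid supply were counted from a list of 27 enzymes and ATF4-responsive genes, of which 25 were tested. Short-term, 4 were higher (16.0%, against 5.62% of all genes) and none lower, with a median log2 fold change of 0.24. An unadjusted p below 0.05 was found for 13, a share that was not counted over all genes. STC2, a secreted glycoprotein of the stress response, rose by 0.96 log2 (SE 0.09, adjusted p = 3.59e-06), GCLM, the modifier subunit of glutathione synthesis, by 0.56, VLDLR by 0.43 and the serine synthesis enzyme PHGDH by 0.41 log2. Long-term, 6 of 25 were higher, against 13.7% of all genes, and 4 lower, close to the 15.8% of all genes that were lower. In all, 40% were called against 29.5% of all genes. VLDLR rose by 0.91, the mTORC1 inhibitor DDIT4 by 0.72 and the pseudokinase TRIB3 by 0.56 log2, while ATF3 fell by 1.33, ATF5 by 0.99 and GLUL, glutamine synthetase, by 0.49 log2. ATF4 itself was at means of 284 to 330 CPM and was not called at either time. Of the 10 members on a list of ATF4-responsive carriers 8 were tested. Long-term, SLC3A2, SLC6A9, SLC7A5 and SLC7A11 fell, beside 15.8% of all genes, and SLC1A4 rose, beside 13.7%.

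Of 26 carriers of amino acids outside these families, mostly of lysosomes and mitochondria, 17 were tested. Short-term, SFXN1, the mitochondrial serine carrier, rose by 0.51 log2 (SE 0.10, adjusted p = 0.00305) and none fell. This is 5.88% called, against 10.3% of all genes. An unadjusted p below 0.05 was found for 4, a share not counted over all genes. Long-term, 3 were higher and 3 lower, 35.3% called, near the 29.5% of all genes. SFXN1 rose by 0.58, the aspartate-glutamate carriers SLC25A12 by 0.58 and SLC25A13 by 0.48 log2. SLC17A5, the lysosomal sialic acid carrier, fell by 1.22, SFXN3 by 0.74 and SLC25A38, a mitochondrial glycine carrier, by 0.30 log2.

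Libraries of the same number shared some of their spread. Replicate 3 had the highest CPM in all 4 groups for 8 of the 36 members (SLC1A4, SLC3A2, SLC6A6, SLC6A17, SLC7A1, SLC7A5, SLC38A10 and SLC43A2), a larger share than the 6.17% of all genes tested. No member was highest in replicate 1 or replicate 2 of all 4 groups, beside 2.87% and 2.62% of all genes.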

How the data were processed

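The authors prepared poly(A) RNA libraries with a TruSeq kit, sequenced them on a MiSeq, trimmed reads with fastp, mapped them with STAR and counted reads per gene with featureCounts (GRCh38 per the labels). Versions, annotation release and strand setting are not given in the sources used here. The deposited values used have the unit count, in a table whose values differ from the per-library files in 0 cells. The deposited normalized columns (unit score) are counts scaled by 1 factor per library (99.9% of values within 1) and were used for that check only.

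Gene IDs were matched to GENCODE 29 (GRCh38), and coordinates are printed for members matched with the same version (55 of 60). In R 4.3.3, edgeR 4.0.16 kept 13959 genes by filterByExpr (99.78% of counts), scaled by TMM and fitted all 12 libraries with a term per group by the robust quasi-likelihood method (prior count 0.125). Tests were two-sided, p-values were adjusted over these genes (Benjamini-Hochberg), and calls were made at 0.05. The SE is the log2 fold change divided by the square root of F. CPM use TMM-scaled library sizes. The biological coefficient of variation was 12%, and replicates of a group differed by more than counting error (chi-square per degree of freedom of at least 2.15). Where a group held 1 to 3 counts, ratios carry 95% exact binomial intervals, and against 0 counts a floor of 3 counts was used. Both cover counting error only. The script was tested on simulated data. Marker genes of proximal tubule and leukocytes were checked.

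Same-numbered libraries deviated together (correlation of deviations from group means, log2 CPM with a prior count of 2) in long-term nontarget against long-term knockdown (0.284, 0.123 and 0.458) and in short-term knockdown against long-term knockdown (0.223, 0.292 and 0.455), so the numbers pair these groups by the data. The short-term nontarget libraries did not (0.017 to 0.111 against short-term knockdown).

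The members and lists were chosen with earlier results of these data known. Named are all members called in a knockdown comparison or the interaction, with library values where the log2 fold change reached 1, the SLC3 heavy chains with their light chains, the lysosomal members, the 5 highest per length and, of other lists, up to 6 called genes of largest change. SLC43A2, SLC38A3, SLC38A1 and other members not called were named after their values were seen. Alternatives were RLE factors, DESeq2 1.42.0, no filter, a mean of 10 CPM, the replicate block, only the groups compared and leaving out each library. Promoter windows came from RefSeq, for 45 members.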

Additional observations from a re-analysis of the deposited data

Results flagged for a closer look

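The change after FLCN knockdown differed between short-term and long-term cells for 13 members by the interaction term of the edgeR quasi-likelihood fit (long-term minus short-term log2 fold change, adjusted p below 0.05). Among heavy and light chains the difference was −1.44 for SLC3A2, −2.38 for SLC7A5, −0.64 for SLC7A6, −2.14 for SLC7A7 and −2.46 for SLC7A10. The glutamate transporters SLC1A1 and SLC1A3 had −2.73 and −2.78. In SLC6 it was −3.37 for SLC6A9, −6.31 for SLC6A12, −6.54 for SLC6A13 and −4.04 for SLC6A20, and in SLC38 it was −3.87 for SLC38A4. SLC43A3 alone of the 36 tested had a positive difference past the threshold in this fit, which has no replicate block, 0.67. The values of SLC6A9, SLC6A12, SLC6A13, SLC6A20 and SLC38A4 rest on at most 3 counts in the long-term knockdown group, none for SLC6A13, and depend on the prior count. SLC6A13 passed the filter only through short-term knockdown and SLC6A20 only through long-term nontarget, in each case a group where it was high. Without the 1 long-term knockdown library that held all counts of its group, the difference was −5.93 for SLC7A10 (replicate 1), −8.17 for SLC6A12 (replicate 2) and −5.69 for SLC38A4 (replicate 1). For SLC6A13 it was −4.72 without long-term nontarget replicate 2, with an adjusted p of 0.215.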

How the results depend on the processing

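No called member changed sign under any alternative run. Leaving out 1 library at a time gave 4 to 5 members higher and 2 to 4 lower for short-term knockdown, 1 to 3 and 15 to 17 for long-term knockdown, 1 to 2 and 2 to 3 for long culture without knockdown, 1 to 2 and 13 to 15 with knockdown, and 0 to 2 and 10 to 11 for the interaction. The short-term count of lower members was 2 without short-term FLCN knockdown replicate 2. With a mean of at least 10 CPM, which leaves 25 members tested, short-term knockdown had 2 higher, long-term knockdown 1 higher and 9 lower, long culture 1 higher without and 5 lower with knockdown, and the interaction 4 lower. Without a filter, 5 were higher after long-term knockdown. RLE factors, DESeq2 and fits of only the groups compared left every count within 1.5 times. The share of all genes called was not counted for these alternatives. Their counts therefore show only how the calls depend on the setting.

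With the replicate block, 8 members were higher short-term, 5 long-term, 5 in long culture without knockdown and 3 in the interaction, and no call of the other fit was lost. The share of all genes called with the block was not counted, so these counts cannot be set against it. Among the gains were SLC7A5 (adjusted p = 0.00107), SLC3A2 (0.00489) and SLC6A8 (0.0212) short-term and SLC7A5 (7.69e-05) in long culture without knockdown. Short-term nontarget libraries share only numbers with the other groups, so the numbers do not pair comparisons that hold them. Members under 1 CPM rest on few counts, and their log2 values depend on the prior count.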
